A study of Rattus norvegicus with 42 samples.

Results

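The blood of rats was examined for 9 genes, 8 that glucocorticoid hormones are known to raise in white blood cells and that of the receptor for the hormone: Fkbp5, Tsc22d3, Irs2, Klf9, Sgk1, Zbtb16, Ddit4, Anxa1 and Nr3c1. The members were chosen by name, as every gene probe (a probe set of the array) whose annotated gene symbol was one of the 9, out of 14217 genes with a gene probe. The array held 12 such gene probes for 8 of the 9 genes, and none was annotated to Zbtb16, which has no value here. Fkbp5 had 2 gene probes, Nr3c1 had 2 and Klf9 had 3. Of the 12 gene probes, 9 averaged at least log2 4 over the 42 arrays and 3 were dimmer, namely 1 of Nr3c1 and 2 of Klf9. A gene is described below by its brightest gene probe unless another is named.

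The rats were young adult male Sprague-Dawley rats of 280 to 350 g, in 7 groups of 6, and whole blood was taken by cardiac puncture under isoflurane at 24 hours. Naive rats had no procedure, and the anesthesia group received isoflurane alone. In the reperfused-MCAO (middle cerebral artery occlusion) group the middle cerebral artery was blocked for 2 hours by a nylon suture that was then withdrawn, and in the permanent-MCAO group the suture stayed in place for the whole 24 hours. Rats of a matching group for each kind of occlusion were given recombinant human tissue plasminogen activator (tPA), 3.3 mg/kg into the peritoneum, at 3 hours. A further group had the same tPA dose with no MCAO, and the sources used here do not say whether those rats were anesthetized in the same way. The occlusion was by a filament and not by a clot, and no hormone level was analysed here. Each array held the blood of 1 rat on the Affymetrix Rat Genome 230 2.0 design, and levels are log2 values as normalised by the authors.

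Glucocorticoids, corticosterone in the rat, are released by the adrenal cortex under the control of the brain and pituitary, and their release rises with stress. The hormone binds the glucocorticoid receptor, encoded by Nr3c1, which is held ready in the cytoplasm by heat shock chaperones, moves to the nucleus and binds response elements in DNA to raise or lower transcription. In blood, glucocorticoids are known for drawing neutrophils into the circulation, lowering circulating lymphocytes and damping inflammatory gene expression. Several of the genes that the receptor raises act back on the hormone's own pathway or carry out its actions in leukocytes, and they are described below in those roles.

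The arrays carried the markers of whole blood. T cell, neutrophil, monocyte, platelet and erythroid marker genes were well measured, and the mean of 4 brain cell markers stayed between 2.94 and 3.25 in the 7 groups. The array of permanent-MCAO with tPA rat 1 stood apart, with a median correlation of 0.893 to the other arrays of its group. The array of tPA without MCAO rat 2 also stood apart, with its hybridization control transcripts, which are added to every sample, at 9.72 against 12.22 ± 0.22 (SD, n = 6) in the anesthesia group. Those control transcripts averaged 11.16 ± 0.75 (SD, n = 6) in the whole tPA group without MCAO. No batch is named in the sources used here. The number of arrays limits the precision of every value, and p-values weigh each difference against the spread between these rats.

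Fkbp5 differed most clearly among the 7 groups. Fkbp5, the co-chaperone FKBP51, lowers the affinity of the receptor for hormone and so forms a short feedback loop on it. Its level averaged 6.77 ± 0.33 (SD, n = 6) in naive rats and 6.87 ± 0.22 in the anesthesia group. It averaged 7.24 ± 0.19 in the tPA group without MCAO. Both stroke groups without tPA had higher means, 7.86 ± 0.54 in reperfused-MCAO and 7.49 ± 0.46 in permanent-MCAO. With tPA the means were 7.46 ± 0.45 in reperfused-MCAO and 7.87 ± 0.38 in permanent-MCAO. The highest and lowest group means of Fkbp5 thus lay 2.15-fold apart. In the order of the group means, the tPA group without MCAO exceeded the anesthesia group below it (exact permutation p = 0.0173, two-sided, 6 rats against 6). For the other neighbouring pairs the lowest exact permutation p was 0.238. Neighbours in rank are the closest groups, so this does not show that the groups were alike.

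In a moderated F test of the 7 groups, 3 of the 12 gene probes passed an adjusted p of at most 0.05, against 9.87% of all 31042 gene probes tested. The 3 were both gene probes of Fkbp5 (limma adjusted p = 0.00292 and 0.0217) and that of Sgk1 (adjusted p = 0.0413). Of all tested gene probes 57.4% averaged below log2 4, against 3 of the 12 members. With those dim gene probes left out, 4013 of 13232 passed the F test. The shares over all gene probes given below include the dim ones too. Sgk1 no longer passed when any of 20 of the 42 arrays, from 6 of the groups, was left out, or in 24 of 52 alternatives in all. Anxa1 had an adjusted p of 0.0805, with group means 1.98-fold apart. Klf9 had group means 1.66-fold apart, Tsc22d3 1.46-fold, Ddit4 1.37-fold and Nr3c1 1.26-fold, and none of these 4 genes or Irs2 passed the F test. With the level of the hybridization controls as a covariate, or without the tPA group without MCAO, the count fell from 3 to 1, the brightest Fkbp5 gene probe.

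**Figure D1:**
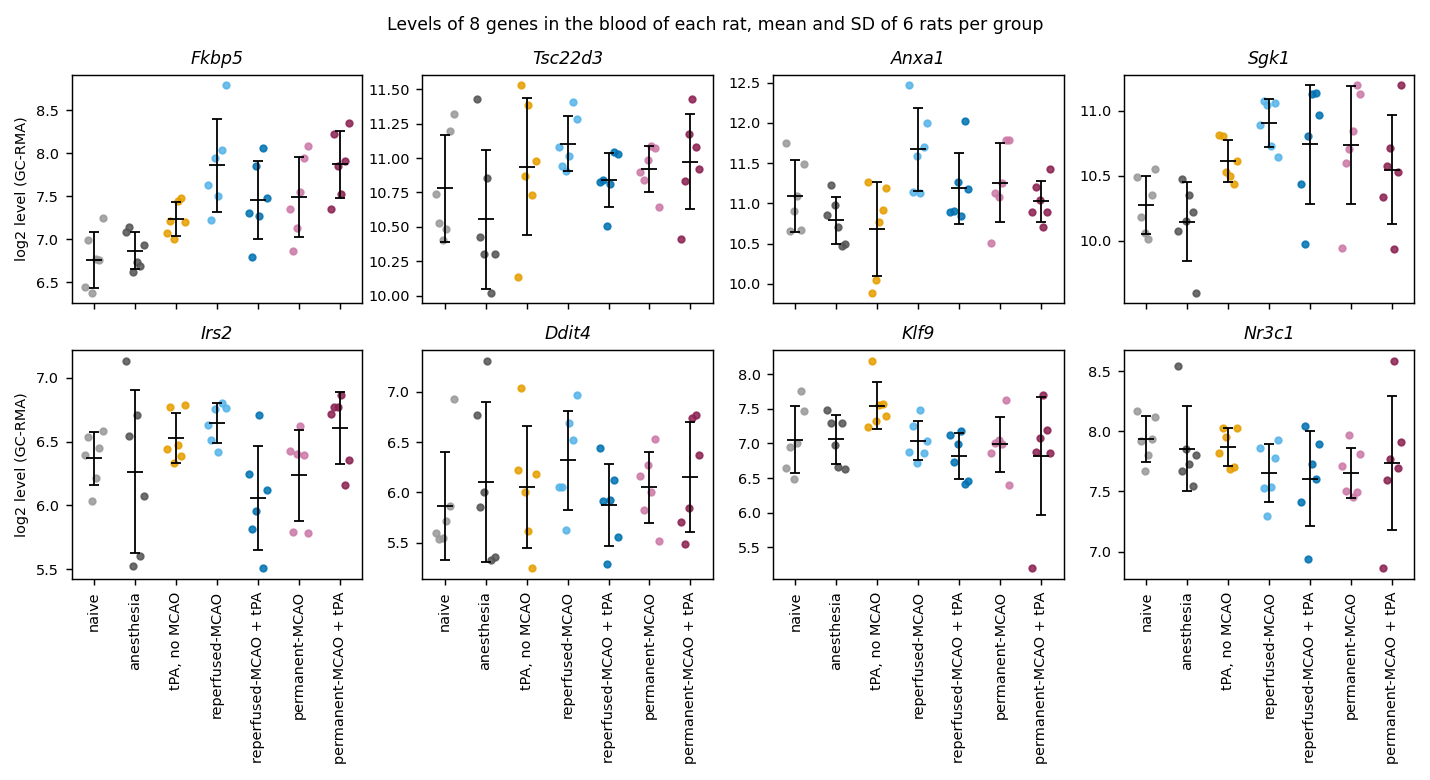
Level (log2) of the 8 measured genes in every rat, 1 panel for each gene and 1 column for each of the 7 groups of 6 rats, where points are rats and the bars are the group mean and SD. Fkbp5 lay lowest in the naive and anesthesia groups, while Ddit4 and Nr3c1 overlapped in all 7 groups.

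The first comparison set reperfused-MCAO without tPA against anesthesia. A gene probe was called at p of at most 0.01 with a fold change of at least 1.2. Of the 12 gene probes, 4 were called and all 4 were higher, for Fkbp5 (both gene probes), Sgk1 and Anxa1, against 6.00% of all gene probes called in either direction. After adjustment over all gene probes 1 remained, Sgk1, against 2.11%. With dim gene probes left out, 1706 of 13232 gene probes were called. The median difference was 0.30 over the 12 gene probes and -0.02 over all gene probes. Because the samples are whole blood, a change in the number of cells of a type and a change in RNA per cell cannot be told apart. This holds for these and for all later differences.

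Fkbp5 in the anesthesia group had a lowest, median and highest level of 6.62, 6.84 and 7.14. In reperfused-MCAO the same 3 values were 7.23, 7.79 and 8.79. Every reperfused-MCAO rat therefore lay above every anesthesia rat. The mean difference was 0.99 ± 0.23 (SE), a 1.99-fold higher level, with exact permutation p = 0.00216, two-sided and the smallest that 6 rats against 6 can give, and limma adjusted p = 0.0540. The dimmer Fkbp5 gene probe, 1380611_at, ranged from 3.54 to 4.93 with a median of 4.21 under anesthesia and from 4.86 to 6.01 with a median of 5.26 in reperfused-MCAO. It differed by 1.08 ± 0.29 (SE, exact permutation p = 0.0130, adjusted p = 0.0875), so that both gene probes of Fkbp5 gave a like difference.

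Sgk1 encodes a serum and glucocorticoid regulated kinase that acts on ion channels and cell survival. Its level ran from 9.60 to 10.47 with a median of 10.19 under anesthesia, and from 10.65 to 11.08 with a median of 10.97 in reperfused-MCAO. Again no rat of either group overlapped the other. The difference was 0.76 ± 0.14 (SE), or 1.70-fold, with exact permutation p = 0.00216 and limma adjusted p = 0.0227. Gene probes whose 2 groups of 6 did not overlap made up 2.63% of all gene probes in this comparison. Among the 12 members there were 3, the brightest of Fkbp5, that of Sgk1, and a dim Klf9 gene probe near the floor of the scale.

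Anxa1 encodes annexin A1, a protein abundant in neutrophils and monocytes that limits their adhesion and helps inflammation to resolve. Its level ran from 10.47 to 11.23 with a median of 10.78 under anesthesia and from 11.13 to 12.47 with a median of 11.64 in reperfused-MCAO. Of the 6 reperfused-MCAO rats, 4 lay above every anesthesia rat. The difference was 0.88 ± 0.23 (SE), or 1.84-fold, with exact permutation p = 0.00649 and limma adjusted p = 0.0853. With the hybridization controls as a covariate it was 0.70, which was not called. An unnamed gene probe, 1394451_at, is called Anxa1 in the study's own tables, which were chosen on these samples, and is not counted as a member. It averaged 8.15 ± 0.65 (SD, n = 6) in reperfused-MCAO and 6.21 ± 0.90 under anesthesia, a difference of 1.94 (exact permutation p = 0.00433).

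Tsc22d3 encodes GILZ, the glucocorticoid-induced leucine zipper that restrains inflammatory transcription factors. It differed by 0.55 ± 0.21 (SE, exact permutation p = 0.0346, adjusted p = 0.243) and was not called. The anesthesia rats ran from 10.02 to 11.43 with a median of 10.36, and the reperfused-MCAO rats from 10.91 to 11.41 with a median of 11.05. A single anesthesia rat, number 1, held the highest value of both groups, and without it the difference was 0.73 (limma adjusted p = 0.0287) and was called. Irs2, the insulin receptor adaptor, differed by 0.38 (exact permutation p = 0.195), and Ddit4, the mTOR inhibitor REDD1, by 0.22 (exact permutation p = 0.578). Klf9, a transcription factor that thyroid hormone also induces, differed by -0.02 and the receptor gene Nr3c1 by -0.20 (exact permutation p = 0.297). Of the 8 measured genes 3 were thus called higher, and the receptor gene was not among them.

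**Figure D2:**
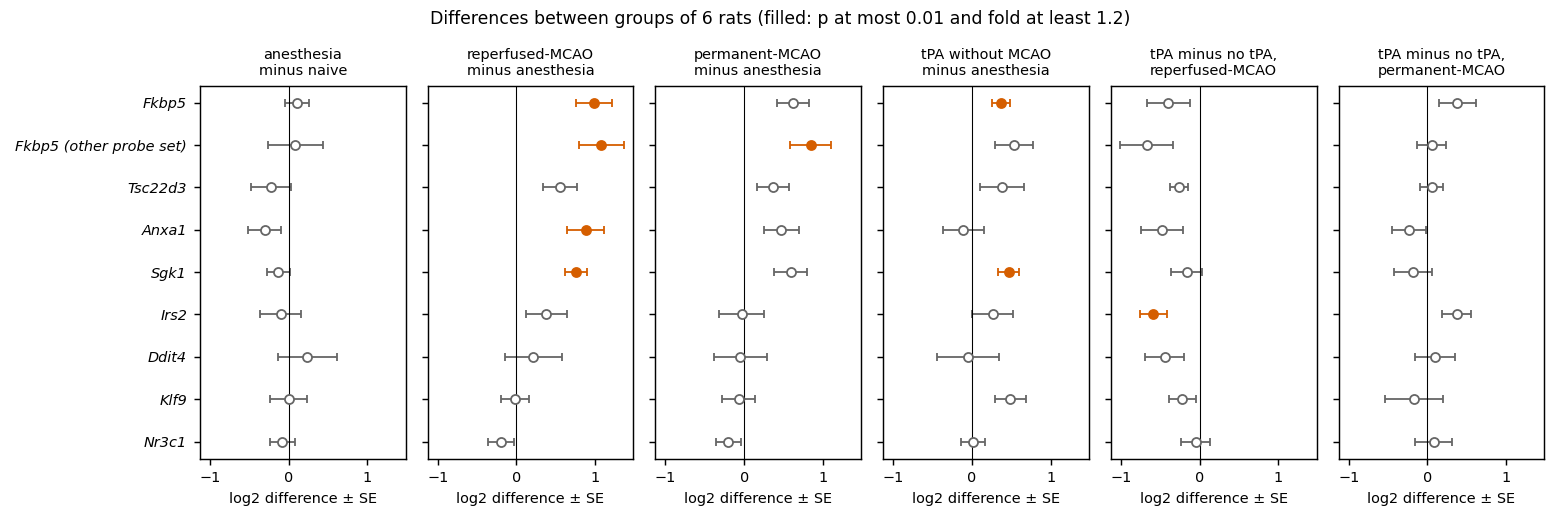
Log2 difference with its SE for the 9 gene probes of log2 4 or more, in 6 comparisons of 6 rats against 6, where filled points passed p of at most 0.01 with a fold change of at least 1.2. In reperfused-MCAO against anesthesia both Fkbp5 gene probes, Sgk1 and Anxa1 are filled, and under tPA in reperfused-MCAO all 8 brightest gene probes lie below 0.

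The promoter windows of these 3 called genes are shown because they moved together in reperfused-MCAO. Each is the RefSeq sequence of build GRCr8 from 250 bases before to 50 bases after the annotated start, on the minus strand, and for Sgk1, which has 3 annotated starts, the most downstream one is given. Capitals mark TATAAA.
Fkbp5, chr20:6543506-6543805: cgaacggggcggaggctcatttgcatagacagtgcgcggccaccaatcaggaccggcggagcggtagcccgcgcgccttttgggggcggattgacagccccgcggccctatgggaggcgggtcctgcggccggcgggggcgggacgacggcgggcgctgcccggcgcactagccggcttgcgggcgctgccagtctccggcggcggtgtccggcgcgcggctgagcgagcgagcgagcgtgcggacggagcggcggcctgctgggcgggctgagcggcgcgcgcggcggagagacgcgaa
Sgk1, chr1:24804782-24805081: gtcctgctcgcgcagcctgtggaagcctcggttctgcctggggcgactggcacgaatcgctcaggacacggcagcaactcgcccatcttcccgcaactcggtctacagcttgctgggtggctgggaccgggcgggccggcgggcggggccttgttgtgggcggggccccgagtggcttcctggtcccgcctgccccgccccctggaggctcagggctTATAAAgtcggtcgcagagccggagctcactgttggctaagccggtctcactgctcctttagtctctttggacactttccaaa
Anxa1, chr1:227303683-227303982: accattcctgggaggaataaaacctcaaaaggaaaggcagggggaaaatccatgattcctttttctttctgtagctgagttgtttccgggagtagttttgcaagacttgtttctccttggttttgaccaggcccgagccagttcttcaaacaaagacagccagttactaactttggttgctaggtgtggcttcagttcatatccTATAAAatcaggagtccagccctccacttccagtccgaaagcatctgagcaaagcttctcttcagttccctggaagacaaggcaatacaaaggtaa
The Fkbp5 window had a GC content of 77% and no TATAAA, the Sgk1 window 66% with TATAAA from base -33, and the Anxa1 window 45% with TATAAA from base -46. The median GC content of all 33469 promoter windows was 51.7%.

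Windows were found for 7 of the 9 genes, 12 windows in all, and none for Irs2 or Zbtb16. Both strands of each were searched for the full palindrome that the receptor binds, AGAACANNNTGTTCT, for a relaxed form, GNACANNNTGTNC, and for its left arm AGAACA, which overlaps the full palindrome. None of the 12 windows held any of the 3. Over all windows the shares were 0.0149%, 0.439% and 20.7%, so that most windows lack them, and the absence says only that these letters do not occur there. TATAAA occurred in windows of 3 of the genes, Tsc22d3, Sgk1 and Anxa1, and in 14.2% of all windows.

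The second comparison set permanent-MCAO without tPA against the same 6 anesthesia rats, so that its values share their controls with those above. Only the dimmer Fkbp5 gene probe was called, 1 of 12 against 2.78% of all gene probes. No member passed the adjusted threshold, which 0.145% of all gene probes passed, and 3 of the 12 had an unadjusted limma p under 0.05. That Fkbp5 gene probe differed by 0.84 ± 0.26 (SE, exact permutation p = 0.0238, limma adjusted p = 0.311), from a median of 4.21 under anesthesia to 4.94. Its call ended when any of 8 of the 12 arrays was left out, and leaving out 1 array in turn gave from 0 to 2 called members. The brightest Fkbp5 gene probe ran from 6.87 to 8.08 with a median of 7.45 and differed by 0.62 ± 0.20 (SE, exact permutation p = 0.0195).

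The remaining genes gave differences of the same sign as in reperfused-MCAO for Sgk1, Anxa1 and Tsc22d3, none of them called. Sgk1 ran from 9.94 to 11.20 with a median of 10.78 and differed by 0.59 ± 0.21 (SE, exact permutation p = 0.0303). Anxa1 ran from 10.50 to 11.79 with a median of 11.19 and differed by 0.47 ± 0.22 (SE, exact permutation p = 0.0693). For both genes 1 or more permanent-MCAO rats lay within the anesthesia range. Tsc22d3 differed by 0.37 (exact permutation p = 0.123), and without anesthesia rat 1 by 0.54 (limma adjusted p = 0.172), which passed the call threshold. Irs2, Ddit4, Klf9 and Nr3c1 differed by between -0.20 and -0.03. Whether the 2 kinds of occlusion differ from each other in these genes was not tested.

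tPA without MCAO was next set against anesthesia. Sgk1 and Fkbp5 were called, both higher, 2 of 12 gene probes against 13.7% of all gene probes. Sgk1 passed the adjusted threshold, 1 of 12 against 12.5%. Sgk1 ran from 10.44 to 10.81 with a median of 10.57, against 9.60 to 10.47 under anesthesia, and 5 of the 6 rats lay above every anesthesia rat. It differed by 0.47 ± 0.13 (SE), or 1.39-fold, with exact permutation p = 0.00433 and limma adjusted p = 0.0447. Fkbp5 ran from 7.00 to 7.48 with a median of 7.21 and differed by 0.37 ± 0.11 (SE, exact permutation p = 0.0173, limma adjusted p = 0.0589). The Sgk1 call ended when anesthesia rat 1 or 3 or tPA rat 1, 2 or 6 was left out. The Fkbp5 call ended when anesthesia rat 3, 4, 5 or 6 or tPA rat 2, 4, 5 or 6 was left out, and in 16 of 22 alternatives in all. The members' share of calls was near that of all gene probes.

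Klf9 was highest in this group, running from 7.24 to 8.20 with a median of 7.48, against 6.63 to 7.48 with a median of 7.13 under anesthesia. It differed by 0.49 ± 0.19 (SE, exact permutation p = 0.0303, limma adjusted p = 0.113) and was not called. Its highest value was in rat 2, whose array stood apart. Tsc22d3 differed by 0.38 (exact permutation p = 0.229) and Anxa1 by -0.11. In the same comparison 13 of 15 T cell markers were called higher, with a median difference of 0.78, and the mean of the T cell markers was 9.75 ± 0.21 (SD, n = 6) against 9.02 ± 0.20. Of 11 erythroid markers 5 were lower and 0 higher, with a median of -1.41, and of 8 platelet markers 3 were lower and 0 higher, with a median of -0.56. The actin 3' minus 5' signal, a sign of RNA quality, was 4.16 ± 0.56 (SD, n = 6) against 3.40 ± 0.44 under anesthesia. The hybridization controls were lower by the values given above. With their level as a covariate Sgk1 differed by 0.36 and Fkbp5 by 0.41, and neither was called. The part of the T cell, erythroid and platelet markers and of RNA quality in the result was not tested.

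The effect of tPA after stroke was taken within each kind of occlusion. In reperfused-MCAO, Irs2 fell, and it was the only member called, 1 of 12 against 0.722% of all gene probes. Irs2 encodes insulin receptor substrate 2, which couples the insulin and interleukin 4 receptors to phosphoinositide 3-kinase. Without tPA its level ran from 6.42 to 6.80 with a median of 6.69, and with tPA from 5.51 to 6.70 with a median of 6.04. Of the 6 rats given tPA, 5 lay below every untreated rat and 1 lay among them. The difference was -0.59 ± 0.17 (SE), with exact permutation p = 0.0108 and limma adjusted p = 0.542. No gene probe of the array passed the adjusted threshold in this comparison (0%), and 2 of the 12 members had an unadjusted limma p under 0.05. The call ended when any of 6 of the 12 arrays was left out.

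The other lead gene probes also gave negative values for tPA in reperfused-MCAO, and none was called. Tsc22d3 differed by -0.26 ± 0.11 (SE, exact permutation p = 0.0433), from 10.91 to 11.41 without tPA and 10.50 to 11.05 with it. Anxa1 differed by -0.48, Ddit4 by -0.45 and Fkbp5 by -0.40 (exact permutation p = 0.126, 0.115 and 0.201). The gene probe 1394451_at differed by -1.13. The study's tables that name it were chosen on these samples, so this value is no separate evidence. The median over the 12 members was -0.24, against 0.02 over all gene probes. Neutrophil markers had a median difference of -0.39 in the same comparison, with 0 of 13 called, and their part in the members' values was not tested.

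In permanent-MCAO no member was called for tPA, 0 of 12 against 0.322% of all gene probes, and 0 of 12 had an unadjusted limma p under 0.05. The ordinary linear model without moderation also called 0. No gene probe passed the adjusted threshold (0%). Irs2 ran from 5.78 to 6.62 with a median of 6.40 without tPA and from 6.16 to 6.87 with a median of 6.74 with it, and 4 of the 6 treated rats lay above every untreated rat. It differed by 0.37 ± 0.18 (SE, exact permutation p = 0.0801), and Fkbp5 by 0.38 (exact permutation p = 0.158). The median over the 12 members was 0.05.

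The tPA effects in the 2 kinds of occlusion were then compared with each other over 24 arrays, reperfused minus permanent. Irs2 was called, 1 of 12 against 0.296% of all gene probes, with a difference of -0.96 ± 0.25 (SE). It ranked 12 among 31042 gene probes by p, its limma adjusted p was 0.978, and no gene probe passed adjustment (0%). Irs2 was thus lower with tPA after reperfusion and had a positive value with tPA in permanent occlusion, and it was called in all 33 of the alternatives tried. Fkbp5 had a value of like sign, -0.78 ± 0.37 (SE), that was not called. The values of the other 6 lead gene probes lay between -0.55 and 0.02.

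Over all 42 arrays stroke, tPA, their interaction and anesthesia were fitted as terms of 1 model, and here p of at most 0.05 with a fold change of at least 1.2 made a call. Averaged over rats with and without tPA, 4 gene probes were called higher with stroke and 1 lower, which is 5 of 12 against 15.4% of all gene probes. With dim gene probes left out, 4182 of 13232 gene probes were called. Fkbp5 was higher by 0.62 ± 0.14 (SE, limma adjusted p = 0.00601) and Anxa1 by 0.55 ± 0.16 (adjusted p = 0.0238). These 2 passed the adjusted threshold, against 7.86% of all gene probes. Sgk1 was higher by 0.35 ± 0.12 (adjusted p = 0.0548), and the dimmer Fkbp5 gene probe by 0.54 ± 0.18 (adjusted p = 0.0586). Klf9 was lower by 0.39 (adjusted p = 0.137). Without the 2 arrays that stood apart its value was -0.25, and with tPA without MCAO rat 2 alone left out -0.32, and neither was called. Among rats without tPA, Klf9 differed from anesthesia by only -0.02 in reperfused-MCAO and -0.07 in permanent-MCAO. Among rats given tPA, its mean was 7.55 without MCAO and 6.82 in both stroke groups. The averaged value thus lay mainly in the rats given tPA.

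No member was called for tPA averaged over rats with and without stroke, 0 of 12 against 12% of all gene probes by the call and 4.36% after adjustment. None had an unadjusted limma p under 0.05, and the ordinary linear model called 0 as well. For the interaction, 3 of 12 were called, all negative, against 21.0% of all gene probes, and 0 passed adjustment, against 9.47%. Sgk1 had an interaction of -0.65 ± 0.23 (SE, limma adjusted p = 0.0692). Its difference for tPA was 0.47 without MCAO, -0.17 in reperfused-MCAO and -0.19 in permanent-MCAO. The dimmer Fkbp5 gene probe had -0.84 ± 0.36 (SE, adjusted p = 0.119) and Klf9 -0.68 ± 0.32 (SE, adjusted p = 0.147). Klf9 gave -0.41 without the 2 arrays that stood apart and -0.11 with the hybridization controls as a covariate. Leaving out 1 array in turn gave between 1 and 5 called members for the interaction.

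Anesthesia itself was set against naive rats. No member was called, 0 of 12 against 0.821% of all gene probes, and 0 of 12 passed adjustment, against 0.00322%. None had an unadjusted limma p under 0.05, and the ordinary linear model called 0. The differences of the 8 brightest gene probes lay between -0.31 for Anxa1 and 0.24 for Ddit4. Fkbp5 ran from 6.38 to 7.24 with a median of 6.76 in naive rats, and its anesthesia values lay inside that range.

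Ddit4 and Nr3c1 were not called in any comparison, and neither was Tsc22d3, described above, with all arrays in the main fits. Ddit4 encodes REDD1, which switches off mTOR complex activity under stress and hormone, and its group means lay between 5.86 in naive rats and 6.32 in reperfused-MCAO, with SDs from 0.35 to 0.79. Nr3c1, the receptor that all the others answer to, had group means between 7.60 in reperfused-MCAO with tPA and 7.93 in naive rats, with SDs from 0.16 to 0.56. Between neighbouring groups in either order the lowest exact permutation p was 0.426 for Ddit4 and 0.515 for Nr3c1. The second Nr3c1 gene probe, 1368222_at, averaged 2.41 and the dim Klf9 gene probes 1.78 and 1.91, and they add no measurement of level.

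Other genes of the pathway were taken from lists written out with earlier results of these data known. Of 22 further glucocorticoid-induced genes measured, 5 were called higher and 0 lower in reperfused-MCAO against anesthesia, with a median of 0.29, while 7.95% of all genes were called. Il1r2, the interleukin 1 decoy receptor, was higher by 2.22 ± 0.39 (SE, limma adjusted p = 0.0211) and Bcl6, a transcriptional repressor of lymphocyte fate, by 0.74 ± 0.15 (adjusted p = 0.0293). The other 3 were Cebpd, Dusp1 and Mt2A, named after their values were seen. In permanent-MCAO 3 of the 22 were higher and 0 lower, with a median of 0.13, against 3.64% of all genes, and Il1r2 differed by 1.60 and Bcl6 by 0.61. tPA without MCAO gave 2 higher, Il7r by 0.65 and Arrdc2 by 0.64, and 1 lower, Tgm2 by -2.28, against 17.1% of all genes. tPA in reperfused-MCAO gave 2 lower and 0 higher, Cxcr4 by -0.38 and Per1 by -0.64, neither past adjustment, against 0.928% of all genes.

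Inflammatory genes that glucocorticoids are known to repress included none called lower in the stroke groups. Of 15 measured, 3 were higher and 0 lower in reperfused-MCAO, against 7.95% of all genes, with Il1b, the cytokine interleukin 1 beta, higher by 1.31 ± 0.16 (SE, limma adjusted p = 0.00832) and the chemokine Ccl5 by 0.72. The third was Ccl4, named after its value was seen. In permanent-MCAO 2 were higher and 0 lower, Il1b by 1.10 and Tnf by 0.86, against 3.64% of all genes. Their median difference was 0.05 in reperfused-MCAO and 0.02 in permanent-MCAO, and 7 of the 15 averaged at least log2 4.

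**Figure D3:**
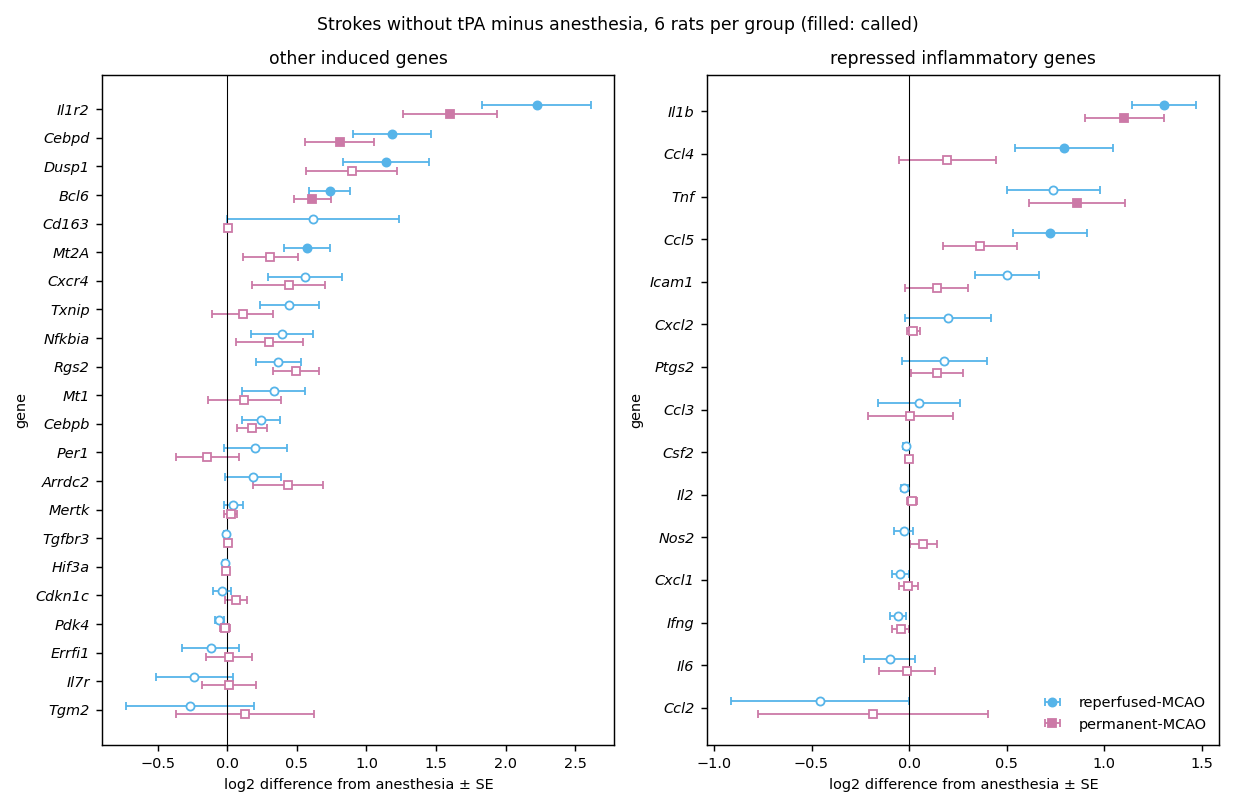
Log2 difference with its SE from the anesthesia group for 22 further glucocorticoid-induced genes and 15 repressed inflammatory genes, in reperfused-MCAO (circles) and permanent-MCAO (squares), where filled symbols were called. Il1r2 and Il1b lie farthest to the right of 0 among the called genes of their lists, at 2.22 and 1.31 in reperfused-MCAO.

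Of the receptor's helpers, chaperones gave 1 call and coregulators none in the 2 stroke groups without tPA against anesthesia, while several coregulators were called for the tPA terms over all 42 arrays. Among 11 chaperones, 0 were called in reperfused-MCAO (7.95% of all genes), Dnajb1 was higher by 0.59 in permanent-MCAO (3.64%), and Ptges3, the p23 co-chaperone, differed by 0.44 in tPA without MCAO and by -0.39 in anesthesia against naive. Among 11 coregulators, 0 were called in either untreated stroke group, and Ncor1 and Ncoa1 were higher by 0.44 and 0.64 in tPA without MCAO, 2 of 11 against 17.1% of all genes. For the averaged tPA effect 4 coregulators were higher and 0 lower, against 14.6% of all genes, with Ncor1 higher by 0.29 ± 0.07 (SE, limma adjusted p = 0.0205) and Hdac2 by 0.35 ± 0.12 (adjusted p = 0.0989). For the interaction of tPA and stroke 5 of the 11 were negative and 0 positive, against 25.8% of all genes, with Ncoa1 at -0.72 ± 0.21 (SE, adjusted p = 0.0251) and Ncoa3 at -0.77 ± 0.26 (adjusted p = 0.0564). For tPA within reperfused-MCAO and within permanent-MCAO 0 of 11 were called, with medians of -0.08 and 0.11. With the hybridization controls as a covariate, calls over all gene probes fell from 3711 to 504 for averaged tPA. For the interaction they fell from 6529 to 1909. The part of the control level in the coregulators' values was not tested. Of the chaperones 2 were negative in the interaction, Stub1 at -0.33 and Ptges3 at -0.36, and neither passed adjustment. Of 5 genes of hormone metabolism, 1 averaged at least log2 4. That gene class gave no call in the comparisons of 12 rats. Hsd11b1, which regenerates active hormone, fell by 0.54 in the averaged stroke effect, 1 of 5 against 20.6% of all genes. In the interaction 1 of 5 was negative, against 25.8%. Neither call passed adjustment, and these shares were near those of all genes.

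Among 7 annexins and related receptors beside Anxa1, Anxa2 and Anxa11 were higher in reperfused-MCAO, by 0.62 and 0.72, against 7.95% of all genes, and 0 were called in permanent-MCAO. In tPA without MCAO Anxa2 and Anxa6 were higher by 0.62 and 0.54, while Anxa7 differed by -1.45, against 17.1% of all genes. Anxa7 was also the 1 gene of this list called in anesthesia against naive, where it differed by 0.70. Of 14 partners of Irs2, Ddit4 and Sgk1 in insulin and mTOR signaling, Akt2 differed by -1.49 in reperfused-MCAO, by -1.21 in permanent-MCAO and by -1.85 in tPA without MCAO. Nedd4l, a ubiquitin ligase that Sgk1 phosphorylates, differed by -2.21 in tPA without MCAO. The calls of this list were 1 of 14 in reperfused-MCAO (7.95% of all genes) and 1 in permanent-MCAO (3.64%). In tPA without MCAO they were 2 of 14, against 17.1% of all genes. In reperfused-MCAO tPA came with Akt2 higher by 0.64 and Rptor, an mTOR complex subunit, lower, at -0.58. That was 1 of 14 in each direction, against 0.928% of all genes, and neither passed adjustment.

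Markers of leukocytes moved with several members. Of 13 neutrophil markers measured, 5 were called higher and 0 lower in reperfused-MCAO, with a median of 1.19, and 5 and 0 in permanent-MCAO, with a median of 0.68. Their mean level ran from 7.09 to 8.35 under anesthesia and from 7.59 to 9.62 in reperfused-MCAO. Of 9 monocyte markers, 5 and 3 were called higher in the same comparisons and 0 lower, and their mean ran from 7.95 to 8.47 under anesthesia and from 8.55 to 9.42 in reperfused-MCAO. Of 9 NK and cytotoxic cell markers, 5 were called higher and 0 lower in reperfused-MCAO, with a median of 0.71 and all 9 positive, and 0 in permanent-MCAO, with a median of 0.31. Their mean ran from 7.94 to 8.76 under anesthesia and from 8.54 to 9.57 in reperfused-MCAO. Of 8 platelet markers 2 were higher and of 11 erythroid markers 2 were lower in reperfused-MCAO, and 0 of either in permanent-MCAO. Of 15 T cell markers, 0 were called in either. The shares of all genes called were 7.95% in reperfused-MCAO and 3.64% in permanent-MCAO. T cell markers were called in the terms in which Klf9 was called. In the averaged stroke effect 14 of the 15 were lower and 0 higher, with a median of -0.55, against 20.6% of all genes. In the interaction of tPA and stroke 11 were negative and 0 positive, with a median of -0.68, against 25.8%. The part of these shifts in the members' differences was not tested.

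Over the 42 rats the levels of the 8 genes were set against the neutrophil, monocyte and T cell marker means and the hybridization controls. The other marker means and the actin signal were not set against them. Counting r and rho separately made 64 tests, with 100000 permutations each and p-values adjusted over all 64. The permutations exchanged all 42 rats without regard to group. Their p-values thus do not separate shifts between groups from relations among rats of a group, for which only r is given. Anxa1 followed the neutrophil mean, with r = 0.80 (permutation p = 1e-05, the smallest they can give, adjusted p = 0.00016) and rho = 0.80 (adjusted p = 0.00016). The r was 0.77 without the 2 rats farthest from the median and 0.79 within groups. With the monocyte mean Anxa1 had r = 0.58 (permutation p = 4e-05, adjusted p = 0.0004) and rho = 0.55 (permutation p = 0.00011, adjusted p = 0.000587), with 0.55 without the 2 farthest rats and 0.49 within groups. It ran against the T cell mean with r = -0.45 (permutation p = 0.00327, adjusted p = 0.00997), where rho did not pass adjustment (-0.35, adjusted p = 0.0522).

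Sgk1 followed both the neutrophil and the monocyte mean. With neutrophils it had r = 0.58 (permutation p = 4e-05, adjusted p = 0.0004) and rho = 0.51 (permutation p = 0.00067, adjusted p = 0.00268). The r was 0.56 without the 2 farthest rats and 0.53 within groups. With monocytes it had r = 0.59 (permutation p = 7e-05, adjusted p = 0.000448) and rho = 0.59 (permutation p = 9e-05, adjusted p = 0.000524), with 0.54 without the 2 farthest rats and 0.30 within groups.

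Fkbp5 went with the monocyte mean, with r = 0.57 (permutation p = 5e-05, adjusted p = 0.0004) and rho = 0.59 (permutation p = 6e-05, adjusted p = 0.000427), and within groups the r was 0.33. It stayed at 0.56 without the 2 farthest rats. With the neutrophil mean Fkbp5 had r = 0.39 (permutation p = 0.0114, adjusted p = 0.0300) and rho = 0.39 (permutation p = 0.0117, adjusted p = 0.0300), with 0.45 without the 2 farthest rats and 0.37 within groups. Klf9 and Nr3c1 went with the T cell mean. For Klf9 r was 0.70 (permutation p = 1e-05, adjusted p = 0.00016) and rho 0.55 (permutation p = 0.00027, adjusted p = 0.00123), with 0.55 without the 2 farthest rats and 0.66 within groups. For Nr3c1 r was 0.61 (permutation p = 5e-05, adjusted p = 0.0004) and rho 0.57 (permutation p = 0.00012, adjusted p = 0.000591), with 0.52 without the 2 farthest rats and 0.63 within groups.

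Tsc22d3, Klf9, Nr3c1 and Ddit4 ran against the hybridization controls. For Tsc22d3 these gave r = -0.48 (permutation p = 0.0008, adjusted p = 0.00301), rho = -0.53 (permutation p = 0.00031, adjusted p = 0.00132) and -0.58 within groups. For Nr3c1 these were r = -0.48 (permutation p = 0.00263, adjusted p = 0.00842), rho = -0.66 (permutation p = 1e-05, adjusted p = 0.00016) and -0.58 within groups, and without the 2 farthest rats r was -0.48 for Tsc22d3 and -0.60 for Nr3c1. Klf9 had r = -0.55 (permutation p = 0.00197, adjusted p = 0.00664) and rho = -0.48 (permutation p = 0.00176, adjusted p = 0.00626), with -0.45 without the 2 farthest rats and -0.44 within groups. Ddit4 had r = -0.38 (adjusted permutation p = 0.0282) and rho = -0.42 (permutation p = 0.00548, adjusted p = 0.0159), with -0.30 without the 2 farthest rats and -0.55 within groups. The part of this array measure in the levels of these genes was not tested.

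**Figure D4:**
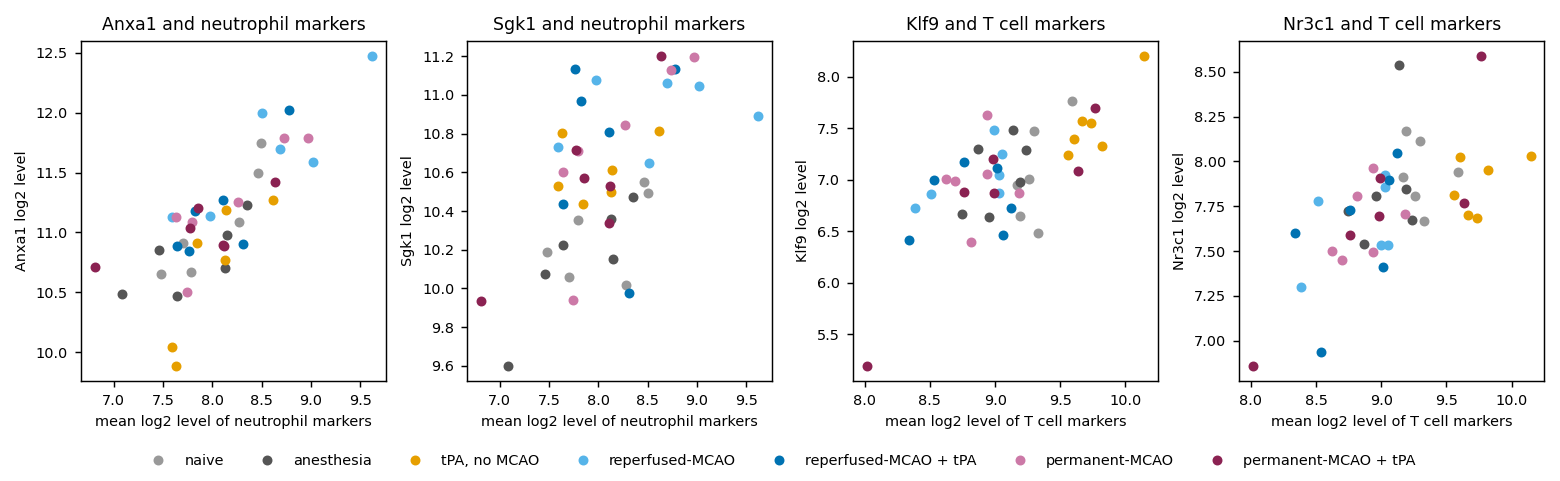
Level (log2) of Anxa1 and Sgk1 against the mean of 13 neutrophil markers, and of Klf9 and Nr3c1 against the mean of 15 T cell markers, 1 point for each of 42 rats coloured by group. Anxa1 rises along the whole range of the neutrophil mean (r = 0.80), and the lowest Klf9 and Nr3c1 points are those of permanent-MCAO with tPA rat 1.

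The genes whose pattern over the 42 arrays was most like each member were sought among 7966 genes, as a description. Fkbp5 was most like Sort1 (r = 0.80) and Adgre5 (0.79), and Sgk1 most like Arap3 (0.87) and Plekhb2 (0.85). Anxa1 was most like Alox5ap (0.84) and S100a9 (0.83), both abundant in neutrophils. Tsc22d3 was most like Cxcr4 (0.84) and Cited2 (0.79), and Ddit4 most like Cxcr4 (0.70) and Tsc22d3 itself (0.59). Klf9 was most like Pold2 (0.82) and Il4r (0.80), Nr3c1 most like Runx1 (0.83) and Pnrc1 (0.82), and Irs2 most like Map4k4 (0.61) and Ap1g1 (0.58). All of these share arrays, and no p is attached.

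The members did not move as 1 block. Fkbp5, Sgk1 and Anxa1 went together, with r = 0.59 for Fkbp5 and Sgk1, 0.55 for Sgk1 and Anxa1 and 0.51 for Fkbp5 and Anxa1. Within groups the same pairs gave 0.40, 0.48 and 0.48. Tsc22d3 went with Ddit4 (r = 0.59), Irs2 (0.53), Klf9 (0.42) and Nr3c1 (0.40), and within groups these were 0.62, 0.51, 0.52 and 0.58. Pairs among Ddit4, Irs2, Klf9 and Nr3c1 ran from 0.25 for Irs2 and Klf9 to 0.42 for Klf9 and Nr3c1. Between Fkbp5, Sgk1 or Anxa1 and the other genes the highest value was 0.42, for Fkbp5 and Tsc22d3. Tsc22d3 had 0.28 with Sgk1 and 0.11 with Anxa1. The value for Fkbp5 and Tsc22d3 was as high as that for Tsc22d3 and Klf9, so the values do not mark off 2 sets. The 2 gene probes of Fkbp5 correlated at 0.76, whereas the 2 of Nr3c1, of which 1 is near the floor of the scale, gave -0.45.

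**Figure D5:**
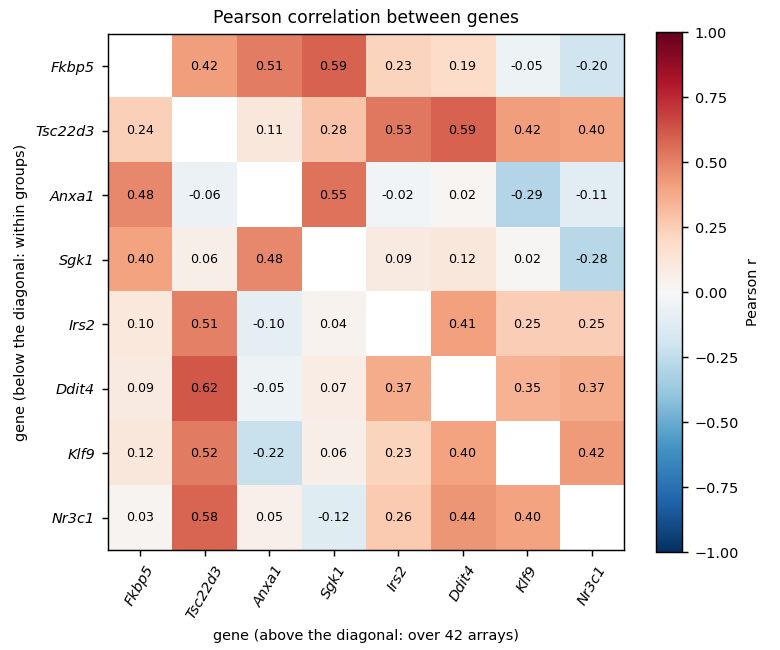
Pearson correlation between the 8 brightest gene probes, above the diagonal over all 42 arrays and below it within groups. Fkbp5, Sgk1 and Anxa1 correlate with each other at 0.51 to 0.59 over all arrays, and Tsc22d3 with Ddit4 at 0.59.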

How the data were processed

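Whole blood RNA of 42 rats was amplified and hybridized by the authors, 1 array per rat, and GC-RMA values on the log2 scale were deposited, 1 column per array. The submitters' processing notes name GCRMA and Partek, and versions were not used here. GC-RMA borrows strength across arrays and pulls dim gene probes toward a floor, so small differences among them are compressed. Array medians lay between 3.05 and 3.26.

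Of 31099 gene probes, 57 controls were set aside and 31042 tested. Gene symbols came from the platform annotation, with 20826 gene probes of 1 symbol, 436 of several and 9780 of none. Pairs of groups, 12 arrays each, were fitted with limma 3.58.1 in R 4.3.3 and called at p of at most 0.01 and a fold change of at least 1.2, after the study's methods. The 42-array terms used p of at most 0.05, and the F test an adjusted p of at most 0.05. The 42-array fit counts the tPA rats without MCAO as anesthetized. P-values were adjusted by Benjamini-Hochberg over all 31042. Exact permutation tests ran over all divisions of 12 rats. Named are the 9 members, the 2 genes of smallest p in each direction of each list, and the 2 genes most correlated with each member. The members and lists were chosen with earlier results of these data known.

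Replicate numbers were not taken to pair rats, since 13 of 36 same-number pairs of arrays had a correlation of deviations over 0.1. The fits were tested on simulated data: for tPA in reperfused-MCAO, 34 of 100 gene probes changed by log2 0.5 and 87 of 100 changed by log2 1 were found, and by the F test of 7 groups 10 and 61 of 100. Alternatives covered scaling, weights, filters, the variance model, control transcripts, the block and each array left out.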

Additional observations from a re-analysis of the deposited data

Results flagged for a closer look

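In 5 of 63 groups of 6 rats tested, 1 rat lay far from the others of its group, where chance alone marks about 1 group in 20. Anxa1 stood at 12.02 in reperfused-MCAO with tPA rat 5, with the next rat at 11.27. Ddit4 stood at 6.93 in naive rat 6, with the next at 5.87. Nr3c1 stood at 8.54 in anesthesia rat 1, with the next at 7.85, and the same rat held the highest Tsc22d3 level of its group. Klf9 stood at 8.20 in tPA without MCAO rat 2, with the next at 7.57, and at 5.20 in permanent-MCAO with tPA rat 1, with the next at 6.87. These last 2 arrays are the ones that stood apart over all gene probes.

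In 4 cases a test of the difference between tPA effects was called, at thresholds without adjustment. For Irs2 the change with tPA after reperfusion minus that in permanent occlusion was -0.96 (limma adjusted p = 0.978). It was 1 of 12 called, against 0.296% of all gene probes. For the interaction of tPA and stroke, Fkbp5 (1380611_at) gave -0.84, Klf9 -0.68 and Sgk1 -0.65, in limma fits in which no member passed an adjusted p of 0.05. Those were 3 of 12, near the 21.0% of all gene probes called. Without both of the arrays that stood apart Klf9 gave -0.41 and was not called.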

How the results depend on the processing

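The 20 called values were computed again under each alternative, which gave 775 values: 681 kept their call, 94 lost it and 0 changed sign. Of the 582 values with 1 array left out, 58 lost the call. In reperfused-MCAO against anesthesia Sgk1 and the brightest Fkbp5 gene probe kept their calls in 21 of 21 alternatives. The Irs2 difference between occlusions kept its call in 33 of 33, and the averaged stroke effect of Fkbp5 (1388901_at), Anxa1 and Sgk1 in 52 of 52. The cause of the changes below was not tested.

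The replicate number as a block moved the called members from 4 to 2 in reperfused-MCAO against anesthesia, where Anxa1 and Fkbp5 1380611_at lost their calls, and from 2 to 0 for tPA without MCAO. It also ended the calls of Irs2 for tPA in reperfused-MCAO and of Sgk1 in the F test. The numbers are only numbers: 6 of the arrays were most like another of their own number, and correlations ran from -0.38 to 0.36.

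In permanent-MCAO against anesthesia the 1 call became 2 with array weights, an intensity trend, quantile scaling or without dim gene probes, 3 in 1 fit of 7 groups, and 0 with the hybridization controls as a covariate or the methods' test. For tPA without MCAO the 2 calls became 1 with an intensity trend, quantile scaling, median centring, without dim gene probes or by the methods' test, and 0 with the hybridization controls or 1 fit of 7 groups. For tPA in reperfused-MCAO the 1 call became 0 with the hybridization controls. The averaged tPA effect went from 0 to 1 with the hybridization controls or with anesthesia coded without the tPA group, and that coding moved the averaged stroke effect from 5 to 3. The interaction went from 3 to 5 with array weights. The F test went from 3 to 1 with the hybridization controls or, chosen after seeing the data, without the tPA group without MCAO. With 1 array left out the counts ran from 4 to 5 in reperfused-MCAO, 0 to 2 in permanent-MCAO, 0 to 2 for tPA without MCAO, 0 to 1 for tPA in reperfused-MCAO, 5 to 6 for stroke, 1 to 5 for the interaction and 2 to 3 for the F test.

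Over all gene probes, array weights moved the calls from 255 to 726 for anesthesia, 224 to 407 and 100 to 231 for tPA in reperfused and permanent MCAO, 92 to 370 for their difference and 3063 to 6574 for the F test. The hybridization controls moved them to 143, 439, 169, 250 and 581, and for tPA without MCAO from 4267 to 803, averaged tPA from 3711 to 504, stroke from 4785 to 2933 and the interaction from 6529 to 1909. Anesthesia coded without the tPA group gave 1681, 2427 and 3908 for the last 3, and naive controls 1611 for tPA without MCAO. Median centring gave 9797 and omission of the tPA group without MCAO 384 for the F test. For tPA in permanent-MCAO the block gave 180, 1 fit of 7 groups 245 and the methods' test 62. Without dim gene probes the counts were 49 there and 49 for the difference. Dim gene probes, 57.4% of those tested, limit what can be seen near the floor.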
